A study of Mus musculus with 18 samples.

Results

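The matrix metalloproteinases (MMPs) described here are the 10 genes Mmp2, Mmp3, Mmp9, Mmp11, Mmp13, Mmp14, Mmp16, Mmp19, Mmp23 and Mmp24. They were taken by name from the 49184 mouse genes to which transcripts in the files could be assigned, and all 10 passed the filter on low counts in the reported fit of every comparison. The annotation holds another 13 genes with an Mmp symbol, which are given as background.

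MMPs are zinc endopeptidases that cut the proteins of the extracellular matrix. Most are made as proenzymes whose propeptide must be removed before they act, and they are held in check by the tissue inhibitors of metalloproteinases (TIMPs). In cartilage, type II collagen is cut chiefly by the collagenase encoded by Mmp13, in bone and marrow Mmp9 is known from osteoclasts and neutrophils, and the membrane-type enzyme encoded by Mmp14 sits on the cell surface and activates the gelatinase encoded by Mmp2 together with Timp2.

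Total RNA depleted of ribosomal RNA was sequenced from femoral condyle cartilage caps of male C57Bl/6J mice aged 12 weeks, in 18 libraries of pooled knees. The anterior cruciate ligament (ACL) of the right knee was ruptured with a single load of 12 N, a closed joint injury used as a model of post-traumatic osteoarthritis. The 5 groups were naïve mice without injury killed at day 7 (6 libraries), the ruptured right knees at day 1 (3 libraries) and at day 7 (3 libraries), and the uninjured left (contralateral) knees of injured mice at day 1 (3 libraries) and at day 7 (3 libraries). The groups share the C57Bl/6J background, with no engineered allele named. The study's methods name isoflurane anaesthesia for loading and buprenorphine given at the start, and do not say whether naïve mice received them. By the study's scheme 2 mice were pooled per day 1 library and 4 per day 7 library, and the naïve libraries held left or right knees of 6 mice in all, 2 knees to a library, whereas the deposited design text gives 4 mice per sample. Contralateral libraries come from the injured mice and naïve libraries can share mice, but the labels do not say which, so that every test treats the libraries as independent and may overstate their number. The day 7 and day 1 groups also differ in the number of mice per library, and the effect of that cannot be told apart from the effect of time. By the same scheme, day 7 libraries of injured mice held more knees each than naïve libraries. In the comparison with naïve libraries that difference cannot be told apart from the effect of rupture. The scheme gives partly lost cartilage at day 7 as the reason for pooling 4 mice.

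The libraries held 16074762 to 41794005 estimated counts (median 25465706). Levels are given as counts per 1000000 (CPM) after scaling by the trimmed mean of M values, which compares 1 gene between libraries, or as transcripts per 1000000 (TPM), which also divides by length and allows 1 gene to be set against another. A gene is called where edgeR's quasi-likelihood test gave a false discovery rate (FDR) of at most 0.05 over all genes tested and a fold of at least 1.5. The contralateral library 1 of day 7 stood apart: its 10 most abundant genes took 42.5% of its counts, against 16.6% to 29.8% in the other 17 libraries, and its scaling factor was 0.696. Calls that change without it are named, or for some gene lists only counted, beside the comparisons that use it.

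The cartilage label was checked against marker lists. None of the 14 chondrocyte markers was at 0 in any library, and their summed level was 4752 to 14785 CPM, with Col2a1 the most abundant in every library. The highest sum was that of contralateral library 1 of day 7, and no other library exceeded 9474 CPM. The caps also held other cells. The 11 osteoblast and osteocyte markers summed to 7725 to 55650 CPM. Of these Col1a1 was the most abundant in all 18 libraries and made up most of the sum, at 7058 to 54701 CPM. No other marker of that list exceeded 444.5 CPM, so the sum mainly follows Col1a1. The 10 neutrophil and marrow myeloid markers summed to 8363 to 17004 CPM, and the 10 osteoclast markers to 891.9 to 1621 CPM. Which marker was the most abundant is given by CPM, which is not divided by length. In bulk RNA, more cells of a type cannot be told apart from more RNA per cell, and this holds for each result below.

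Mmp13 and Mmp3 lie in 1 cluster of MMP genes on chromosome 9, where 10 of the 23 genes span 427072 bases (GRCm38, chr9:7272514-7699585). Their promoters are shown because both hold an AP-1 motif and a TATA box, which the other 5 windows at hand lack. RefSeq (GRCm38.p6) gave windows of 250 bases before to 50 bases after the gene start for 6 of the 10 genes, and none for Mmp2, Mmp9, Mmp16 and Mmp19. Capitals mark matches to the AP-1 motif, spelled TGANTCA, the TATA box, spelled TATAAA, or the Runx motif, spelled TGTGGT and read on the other strand as ACCACA. Each was searched on both strands, and no matches overlapped. The Mmp13 window is chr9:7272264-7272563 on the plus strand, the Mmp3 window chr9:7445572-7445871 on the plus strand and the Mmp14 window chr14:54431348-54431647 on the plus strand. Mmp23 has 2 windows, of which chr4:155653335-155653634 on the minus strand is printed.
Mmp13: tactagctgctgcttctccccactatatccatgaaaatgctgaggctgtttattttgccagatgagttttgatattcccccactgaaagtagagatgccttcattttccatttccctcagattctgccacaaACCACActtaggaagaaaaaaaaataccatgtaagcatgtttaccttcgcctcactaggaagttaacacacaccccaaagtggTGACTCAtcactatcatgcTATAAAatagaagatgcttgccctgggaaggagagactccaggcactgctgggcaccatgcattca
Mmp3: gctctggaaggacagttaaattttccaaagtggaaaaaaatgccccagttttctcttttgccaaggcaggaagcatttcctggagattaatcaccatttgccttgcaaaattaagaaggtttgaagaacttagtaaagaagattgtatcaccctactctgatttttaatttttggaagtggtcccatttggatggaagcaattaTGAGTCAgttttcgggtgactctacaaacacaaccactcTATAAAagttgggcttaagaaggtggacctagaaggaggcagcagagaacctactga
Mmp14: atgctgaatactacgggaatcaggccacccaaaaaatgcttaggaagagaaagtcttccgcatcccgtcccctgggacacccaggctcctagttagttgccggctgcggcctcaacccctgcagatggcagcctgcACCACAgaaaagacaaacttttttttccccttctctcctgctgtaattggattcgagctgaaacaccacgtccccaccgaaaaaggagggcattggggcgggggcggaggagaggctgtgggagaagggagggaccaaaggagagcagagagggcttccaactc
Mmp23: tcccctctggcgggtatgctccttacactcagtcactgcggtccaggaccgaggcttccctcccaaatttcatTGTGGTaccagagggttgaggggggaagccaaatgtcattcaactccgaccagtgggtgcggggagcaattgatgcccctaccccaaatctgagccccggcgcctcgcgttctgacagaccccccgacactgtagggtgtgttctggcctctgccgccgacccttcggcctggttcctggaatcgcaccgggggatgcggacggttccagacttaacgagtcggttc

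In Mmp13 the AP-1 motif began 35 bases and the TATA box 16 bases before the annotated start, and a Runx motif 118 bases before it. The AP-1 motif of Mmp3 began 46 bases and its TATA box 7 bases before the start. Of all 32851 promoters in the table, 7.81% held the AP-1 motif, 13.6% the TATA box, 16.8% the Runx motif and 1.54% both the AP-1 motif and the TATA box. The Mmp14 window held only a Runx motif, 114 bases before the start, as did 1 Mmp23 window, at 177 bases, and the second Mmp23 window, Mmp11 and Mmp24 held none of the 3. These matches describe letters in 1 window and not binding.

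In naïve cartilage caps the MMP transcripts were mostly those of Mmp9 and Mmp13. By TPM, Mmp9 was the highest of the 10 genes in all 6 naïve libraries, at 113.7 to 167.6 TPM, and Mmp13 followed at 35.1 to 93.0 TPM. Mmp14 (17.5 to 27.7 TPM) and Mmp2 (18.9 to 26.3 TPM) came next, with ranges that overlapped each other and lay below that of Mmp13. Mmp19 (1.87 to 7.97 TPM), Mmp3 (0.648 to 9.14 TPM), Mmp23 (1.71 to 2.67 TPM), Mmp16 (0.938 to 2.04 TPM) and Mmp11 (0.594 to 1.06 TPM) formed a low tier in which each neighbour's range overlapped the next. Mmp24 was the lowest of the 10 in all 18 libraries, with a median of 11.5 estimated counts.

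At day 7 after rupture the order had changed at its top. Mmp2 was the highest in the 3 ruptured libraries of day 7 (136.3, 159.5 and 226.8 TPM), and Mmp9 was the highest in the 15 other libraries. Mmp14 stood at 93.3, 128.5 and 167.3 TPM in the day 7 ruptured libraries, and its range overlapped those of Mmp2 and of Mmp9 (102.9, 104.5 and 112.0 TPM). Of the summed TPM of the 10 genes, Mmp9 took 55.1% ± 4.48 (SD, n = 6) in naïve and 20.8% ± 3.25 (SD, n = 3) in day 7 ruptured libraries. The share of Mmp2 was 8.99% ± 1.25 and 33.0% ± 2.37 in the same groups, and that of Mmp14 was 9.17% ± 0.819 and 24.5% ± 2.33. Shares are bound to sum to 100 and do not give a gene's own level. In TPM, Mmp9 lay below every naïve library in the day 7 ruptured ones, while in CPM, given below, these groups overlapped.

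**Figure D1:**
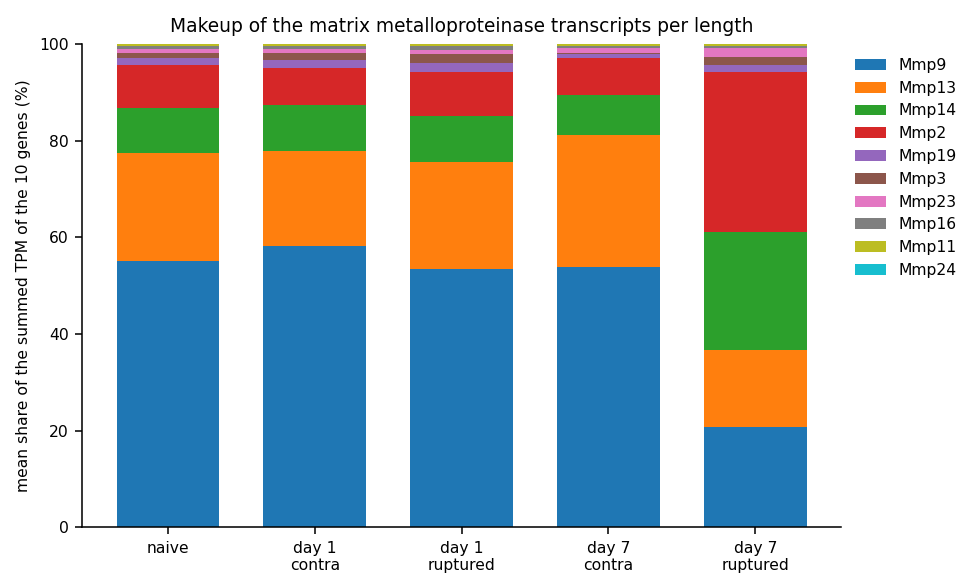
Bars stack the mean share (%) of each gene in the summed TPM of the 10 MMP genes, for the 5 groups on the x axis (contra, contralateral). Mmp9 is the largest block in the first 4 groups, at 53.5% to 58.2%, and Mmp2 and Mmp14 are the largest in the day 7 ruptured libraries, at 33.0% and 24.5%.

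Against naïve libraries, 7 of the 10 MMP genes were higher and 1 was lower in the ruptured knees at day 7. Among all 21129 genes tested, 10.4% were called higher (2207 genes) and 6.11% lower (1291 genes). The median log2 fold change was 1.76 over the 10 genes and -0.04 over all genes. The 10 were chosen with earlier results of these data known, so their counts and median describe this list and not all MMP genes. Of the other MMP genes 8 were tested, of which 1 was called higher over naïve, with a median of -0.175. Against the contralateral knees of the same day, 6 of the 10 were higher and none lower, with a median of 1.85 (all genes -0.05), and 9.33% of 21262 genes were called higher and 3.23% lower. The 2 comparisons share the 3 ruptured libraries. Without contralateral library 1, 5 of the 10 were higher (Mmp3 was lost) with a median of 1.97, among 2030 genes higher and 434 lower, where the counts with it were 1984 and 686. The log2 fold changes were then 3.19 for Mmp2, 2.41 for Mmp14, 2.36 for Mmp23, 2.20 for Mmp19, 1.74 for Mmp11, 0.28 for Mmp16 and 0.03 for Mmp13, with the calls of these 7 genes unchanged. Upper-quartile scaling kept these 7 and 6 higher calls but moved the median of all genes from -0.039 to -0.214 against naïve libraries and from -0.049 to -0.162 against contralateral ones. It turned the split over all genes to 1608 higher and 2739 lower against naïve libraries, and to 1671 and 1357 against contralateral libraries.

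**Figure D2:**
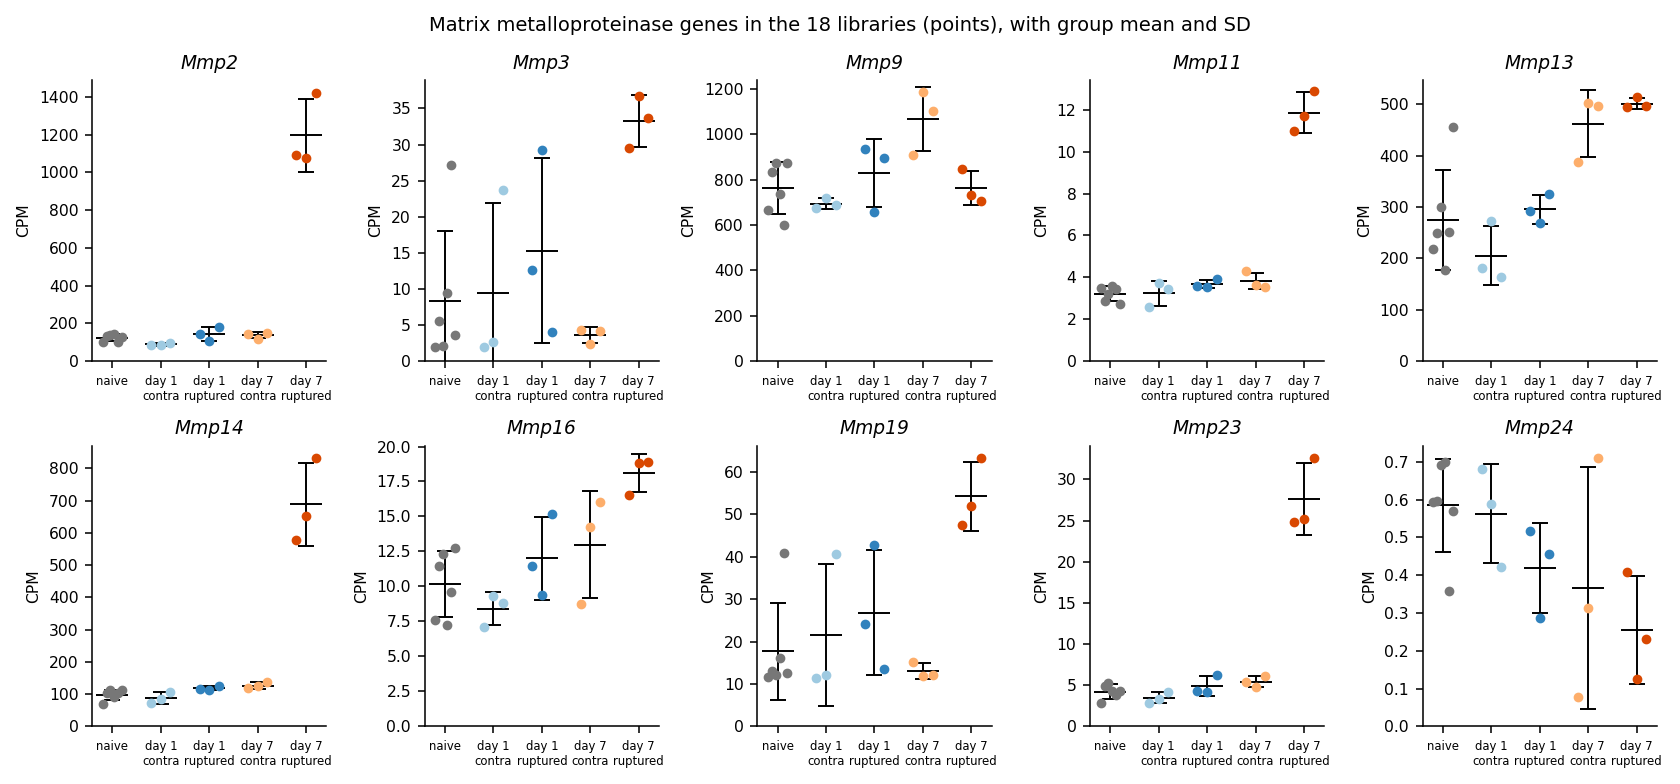
Each panel is 1 MMP gene, with CPM on the y axis (from 0) and the 5 groups on the x axis, where points are libraries and the black marks are the group mean and SD (bars cut at 0). Mmp2, Mmp11, Mmp14 and Mmp23 are separated from all other libraries in the day 7 ruptured group, while Mmp3 and Mmp19 also have high libraries in 3 other groups.

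Mmp2, the gelatinase A gene (chr8:92827291-92853420), had the largest change over naïve libraries. Its level was 101.4, 131.7, 136.4, 142.2, 101.7 and 129.9 CPM in naïve libraries 1 to 6 (listed in that order), and 1094, 1076 and 1421 CPM in the day 7 ruptured libraries. Contralateral libraries of day 7 held 141.3, 117.7 and 148.5 CPM. No library of another group came near the ruptured ones at day 7. The rise was 9.78-fold over naïve (log2 fold change 3.29 ± 0.15 SE, FDR = 1.81e-09) and 8.81-fold over contralateral libraries (3.14 ± 0.20, FDR = 1.84e-08). The full-length transcript took 99.4% of its counts.

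Mmp14, the first membrane-type MMP (chr14:54431612-54445364), rose with it. Ruptured libraries of day 7 held 579.6, 652.8 and 832.6 CPM, against 70.4 to 112.5 CPM (median 102.5) in naïve and 117.8, 125.4 and 137.1 CPM in contralateral libraries. The groups did not overlap. The difference was 7.08-fold over naïve (log2 fold change 2.82 ± 0.15, FDR = 4.61e-09) and 5.43-fold over contralateral libraries (2.44 ± 0.18, FDR = 8.94e-08).

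Mmp23, which encodes a small membrane-bound MMP that is shed by cleavage (chr4:155650655-155653384), had a low level and a similar rise. Its values were 24.9, 25.2 and 32.6 CPM in day 7 ruptured libraries, 2.81 to 5.29 CPM (median 4.27) in naïve libraries and 5.46, 4.77 and 6.12 CPM in contralateral libraries. Ruptured libraries of day 7 again stood alone, at 6.59-fold over naïve (log2 fold change 2.72 ± 0.18, FDR = 4.24e-08) and 5.05-fold over contralateral (2.34 ± 0.22, FDR = 1.09e-06). Transcripts that retain introns took part of its counts, and the main coding transcript 89.4%.

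Mmp11, also called stromelysin-3 (chr10:75923222-75936496), rose from 2.74 to 3.61 CPM (median 3.32) in naïve libraries to 10.99, 11.7 and 12.9 CPM in day 7 ruptured libraries, with 4.29, 3.65 and 3.55 CPM in contralateral ones. That was 3.72-fold over naïve (log2 fold change 1.89 ± 0.13, FDR = 5.42e-08) and 3.12-fold over contralateral libraries (1.64 ± 0.16, FDR = 1.35e-06). Its exons share 155 of 2778 bases with Chchd10 on the opposite strand, whose log2 fold change over naïve was -0.59 ± 0.24 (FDR = 0.0786).

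Mmp2, Mmp11, Mmp14 and Mmp23 were called in all 9 fits that left out 1 library and all 11 other settings for the comparison with naïve libraries, and in all 6 and 10 such fits for the comparison with contralateral ones. Over the 18 libraries the log2 levels of Mmp14 and Mmp23 had a Pearson r of 0.992, those of Mmp2 and Mmp23 of 0.990 and those of Mmp2 and Mmp14 of 0.982. These values describe points that share libraries, 3 of which are high for all of them. Markers of activated fibroblasts moved with the same libraries. Of the 10 synovial and activated fibroblast markers, 6 were called higher over naïve and none lower (median log2 fold change 1.51). Among all genes, 10.4% were called higher over naïve and 9.33% over contralateral libraries. The 4 with the lowest FDR over naïve were Lrrc15 (log2 fold change 5.16), Cthrc1 (4.68), Thy1 (1.91) and Fap (1.09), and Postn was at 4.29. Over contralateral libraries 7 were called higher, 6 without contralateral library 1. The sum over the 10 markers was 3568, 4928 and 6286 CPM in day 7 ruptured against 793 to 2018 CPM in naïve libraries. By CPM, not divided by length, Postn was their most abundant gene in the ruptured libraries of day 7, at 2087 to 3470 CPM, and no marker of the list was at 0 in any library. The part of these cells in the MMP levels was not tested.

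**Figure D3:**
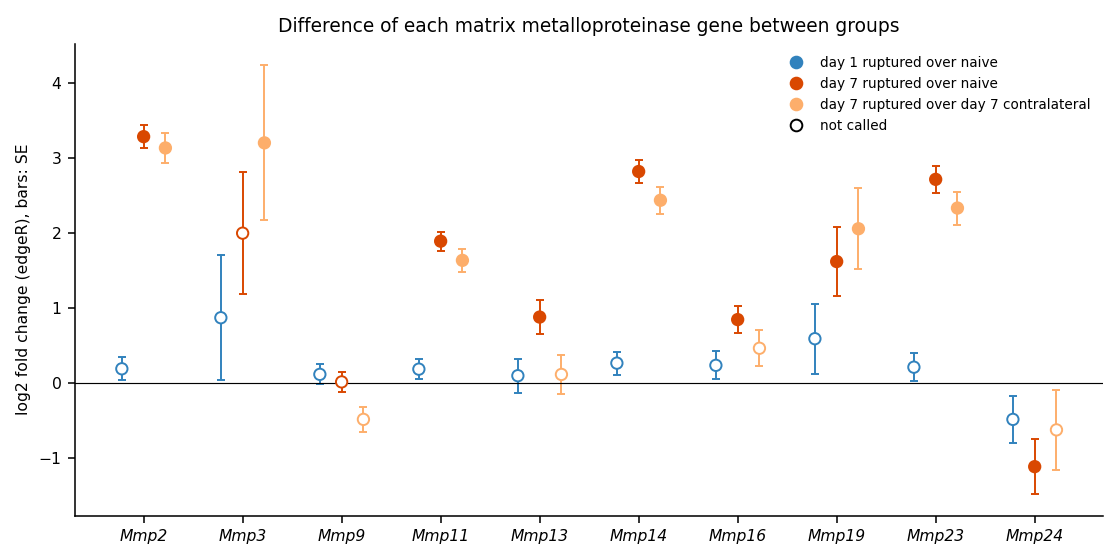
Points give the edgeR log2 fold change of each MMP gene on the y axis with its SE, for day 1 ruptured over naïve libraries and for day 7 ruptured over naïve and over contralateral libraries, with open points where the gene was not called. Mmp2, Mmp14, Mmp23 and Mmp11 lie between 1.64 and 3.29 at day 7, and all 10 points of day 1 are open.

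Mmp13 (chr9:7272514-7283331), the collagenase-3 gene, was higher in ruptured knees at day 7 than in naïve ones, but not than in the contralateral knees of that day. Naïve libraries 1 to 6 held 217.1, 249.4, 299.4, 177.4, 251.9 and 456.3 CPM. Contralateral libraries of day 7 held 386.8, 502.3 and 497.3 CPM and ruptured ones 494.1, 513.0 and 496.2 CPM. The ruptured libraries lay above all naïve ones and overlapped the contralateral ones, with ruptured library 2 above all of these. Over naïve libraries Mmp13 rose 1.84-fold (log2 fold change 0.88 ± 0.22, FDR = 0.00774). The difference from contralateral libraries was 0.12 ± 0.26 on the log2 scale (FDR = 0.808). Contralateral over naïve gave 0.75 ± 0.22 (FDR = 0.248), or 0.86 ± 0.24 (FDR = 0.745) without contralateral library 1, and was not called. Ruptured knees of day 7 were above those of day 1 (269.2 to 324.4 CPM) by 0.78 ± 0.27 (FDR = 0.0432), a call that was lost in each of the 6 fits without 1 library (FDR 0.0747 to 0.124).

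Mmp9 (chr2:164940780-164955850), the gelatinase B gene, did not follow Mmp2. Its 6 naïve libraries held 600.1 to 874.4 CPM (median 784.1) and its day 7 ruptured libraries 848.0, 732.6 and 707.5 CPM, within the naïve range (log2 fold change 0.02 ± 0.13, FDR = 0.936). The sign of this small value turned under several settings. The 2 highest Mmp9 levels were in contralateral libraries of day 7, which held 910.5, 1187 and 1101 CPM, all above the naïve and the ruptured libraries of that day. Ruptured over contralateral gave -0.48 ± 0.16 (FDR = 0.0474), which passes the FDR limit but not the limit of 1.5-fold, and contralateral over naïve gave 0.48 ± 0.14 (FDR = 0.248). Without contralateral library 1 these were -0.56 ± 0.17 (FDR = 0.0269) and 0.58 ± 0.15 (FDR = 0.712), neither of them called.

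Values of osteoclast and neutrophil markers are given beside Mmp9 and Mmp13. The osteoclast sum was 1297, 1605 and 1541 CPM in contralateral and 1500, 1621 and 1511 CPM in ruptured libraries of day 7, against 891.9 to 1265 CPM in naïve libraries. Of its 10 genes, Ctsk alone was called higher over naïve (log2 fold change 1.25 ± 0.16, FDR = 2.52e-05) and Nfatc1 alone over contralateral libraries (0.69 ± 0.17, FDR = 0.00870), and none over contralateral libraries 2 and 3. Of all genes, 10.4% were called higher and 6.11% lower over naïve libraries, and 9.33% and 3.23% over contralateral ones. The osteoclast counts, 1 of 10 each, are near the shares called higher. The neutrophil sum was 11839, 17004 and 15202 CPM in contralateral and 8363 to 11422 CPM in ruptured libraries of day 7, against 10596 to 15708 CPM in naïve libraries, which overlap both. Over naïve libraries 2 of its 10 genes were called lower, S100a8 (-0.67 ± 0.20, FDR = 0.0192) and S100a9 (-0.63 ± 0.23, FDR = 0.0493), and over contralateral libraries Retnlg, Camp and Ltf. Without contralateral library 1 these 3 were not called (FDR 0.0660 to 0.142) and 4 others were called lower, S100a9, S100a8, Cxcr2 and Lcn2. By CPM, which is not divided by length, Ngp was the most abundant neutrophil marker in 10 libraries, S100a8 in 6 and Ltf in 2, and no gene of either list was at 0. Their part in the levels of Mmp9 and Mmp13 was not tested.

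**Figure D4:**
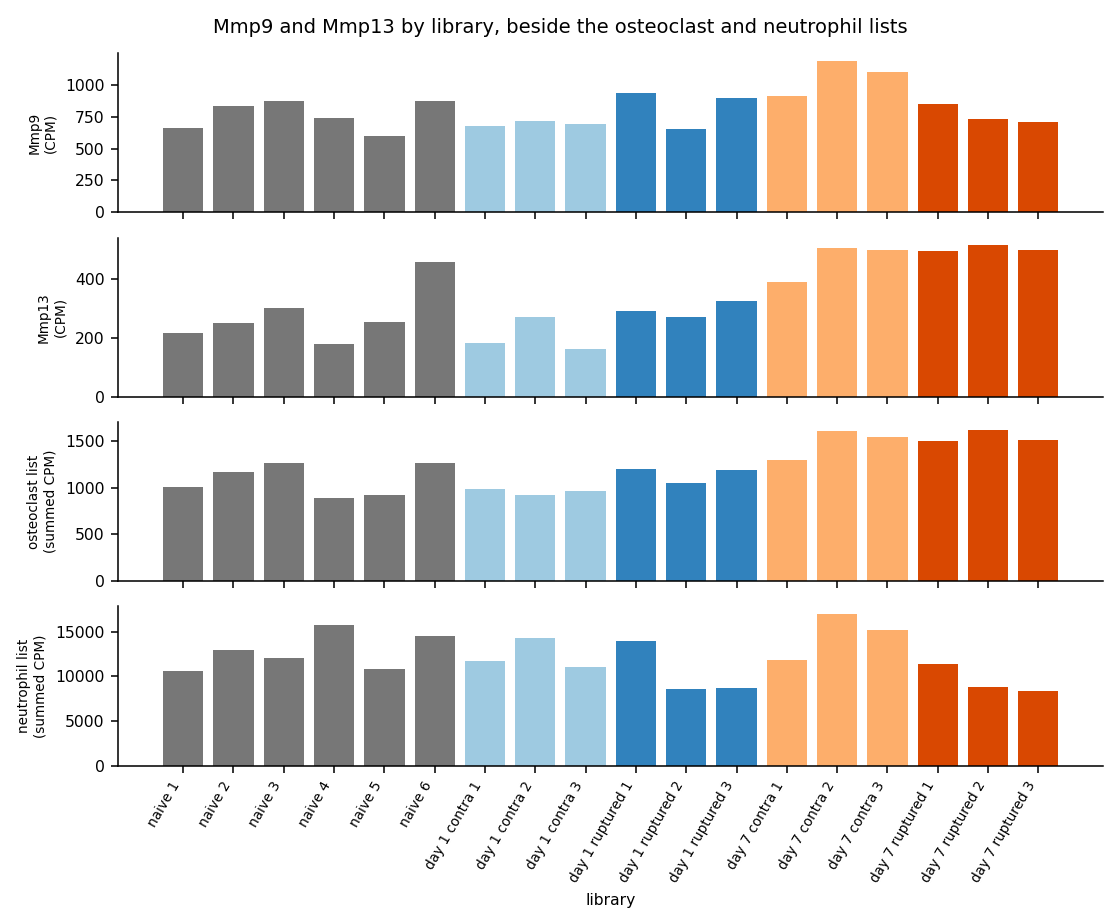
Bars give, for each of the 18 libraries on the x axis, the CPM of Mmp9 and Mmp13 and the summed CPM of the osteoclast and neutrophil lists, with 1 colour per group. Mmp9 peaks in contralateral library 2 of day 7 (1187 CPM), as does the neutrophil sum (17004 CPM), while Mmp13 is at 386.8 to 513.0 CPM and the osteoclast sum at 1297 to 1621 CPM over the 6 libraries of day 7 knees from injured mice.

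Mmp3 (chr9:7445822-7455975), stromelysin-1, and Mmp19 (chr10:128790910-128800824), a secreted MMP outside these classes, had a pattern of their own. Naïve libraries 1 to 6 held 1.98, 5.57, 2.14, 9.45, 27.2 and 3.63 CPM of Mmp3. Day 1 contralateral libraries held 1.90, 2.69 and 23.7 CPM, day 1 ruptured ones 12.6, 29.3 and 4.06 CPM, day 7 contralateral ones 4.36, 2.36 and 4.16 CPM, and day 7 ruptured ones 29.6, 36.8 and 33.6 CPM. So 1 library in each of the naïve, day 1 contralateral and day 1 ruptured groups lay near the level of the day 7 ruptured knees.

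The Mmp3 rise over naïve libraries was not called (log2 fold change 2.002 ± 0.82, FDR = 0.0779) although the groups did not overlap. Without naïve library 5 it was 2.88 (FDR = 0.00969) and was called, as it was by limma-voom (2.64, FDR = 0.0161) and by a fit on the compared groups alone (1.99, FDR = 0.0371). Over contralateral libraries Mmp3 was called (3.21 ± 1.04, FDR = 0.0386), and this call was lost in each of the 6 fits that left out 1 library (2.95 to 3.36, FDR 0.0565 to 0.109). Without contralateral library 1, which stood apart, it was 3.36 with FDR = 0.0794.

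Mmp19 showed the same libraries high. Its level was 40.9 CPM in naïve library 5, against 11.6 to 16.1 CPM in the other 5 naïve libraries, 40.8 CPM in day 1 contralateral library 3, and 24.2 and 42.7 CPM in day 1 ruptured libraries 1 and 2. Day 7 contralateral libraries held 15.2, 11.9 and 12.1 CPM and day 7 ruptured libraries 47.5, 52.0 and 63.3 CPM. The rise was 3.08-fold over naïve (log2 fold change 1.62 ± 0.46, FDR = 0.0152) and 4.17-fold over contralateral libraries (2.06 ± 0.54, FDR = 0.0120). Without ruptured library 3 of day 7 the call against naïve libraries was lost (1.501, FDR = 0.0628). Exons of Mmp19 share 789 of 3533 bases with Tmem198b on the opposite strand, which was itself higher over naïve (1.16 ± 0.18, FDR = 0.000207), so that Mmp19 counts are uncertain to that extent.

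Of the 10 fibroblast markers, Pdpn, Prg4, Postn and Cthrc1 were each at their group's highest level in naïve library 5, day 1 contralateral library 3 and day 1 ruptured library 2, and the other 6 were not so in all 3. Pdpn, a surface marker of synovial lining fibroblasts, was at 45.5 CPM in naïve library 5, 54.1 CPM in day 1 contralateral library 3 and 47.5 CPM in day 1 ruptured library 2, and at 6.09 to 11.7 CPM in the other 5 naïve libraries. Prg4, which encodes the joint lubricant lubricin, was at 1409, 1649 and 1775 CPM in these 3 libraries, and Postn, which encodes the matrix protein periostin, at 304.5, 208.9 and 206.9 CPM. Among macrophage markers Cx3cr1 (42.9, 39.9 and 36.7 CPM) and Cd68 (58.7, 61.0 and 55.1 CPM) were also the highest of their groups there, as was Adgre1, and the other 7 of 10 were not so in all 3. The fibroblast sum was 2018, 2155 and 2283 CPM there, most of it from Prg4, which the chondrocyte list holds too. Fap (54.4, 48.3 and 62.6 CPM) and Lrrc15 (2.19, 1.38 and 1.43 CPM) were not raised in the 3 libraries, and in naïve library 5 both were at the lowest level of the naïve group. Mmp2, Mmp11, Mmp14 and Mmp23 were within the range of the other naïve libraries in naïve library 5 (101.7, 3.42, 102.2 and 3.78 CPM), while Mmp2, Mmp14 and Mmp23 were the highest of their group in day 1 contralateral library 3 (96.7, 108.3 and 4.18 CPM) and the lowest of theirs in day 1 ruptured library 2 (103.7, 114.0 and 4.16 CPM). Whether synovial tissue or macrophages in the caps contributed to Mmp3 and Mmp19 was not tested.

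**Figure D5:**
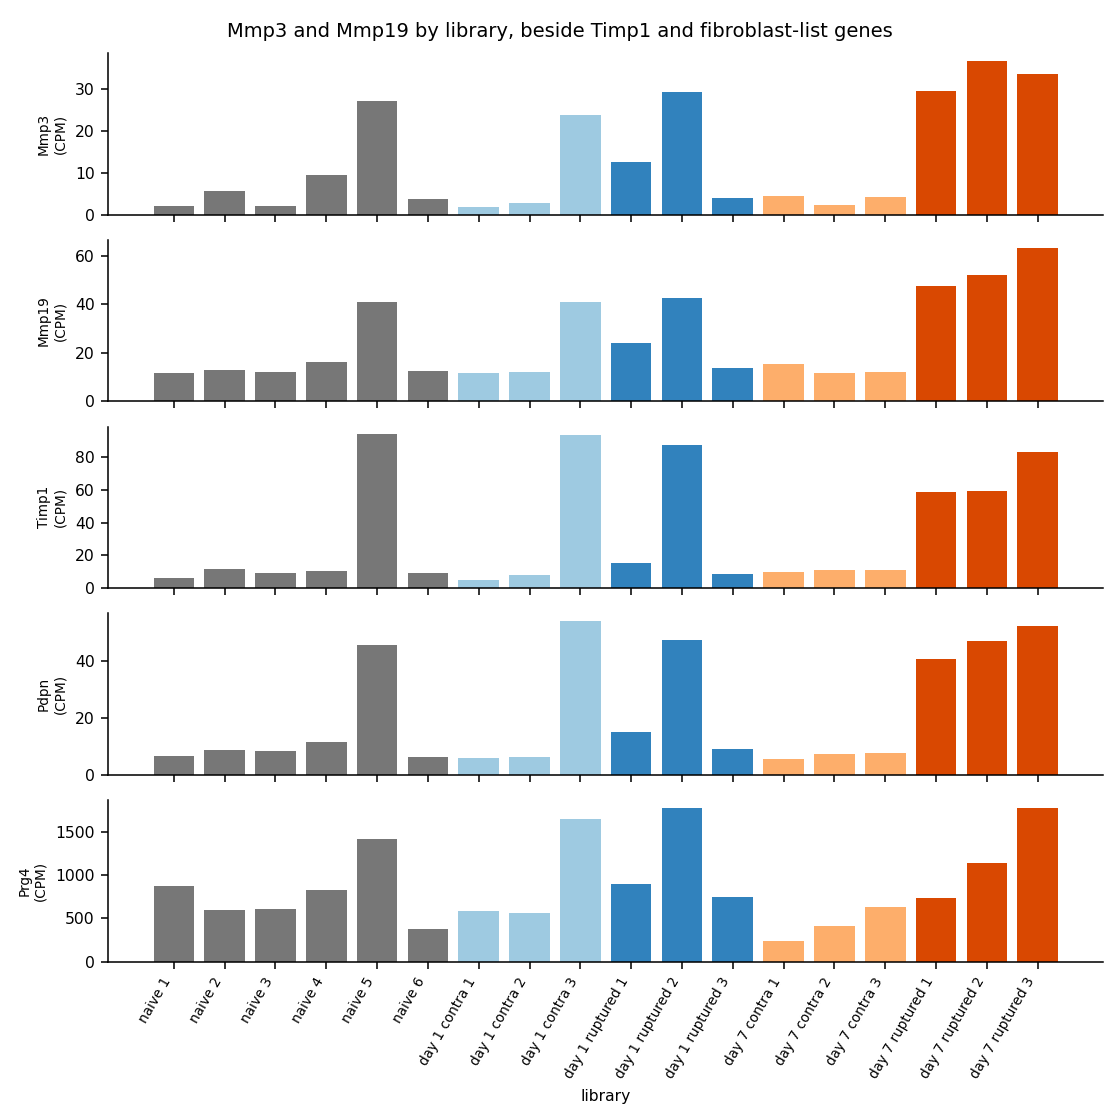
Bars give the CPM of Mmp3, Mmp19, Timp1, Pdpn and Prg4 in each of the 18 libraries on the x axis, with 1 colour per group. Naïve library 5, day 1 contralateral library 3 and day 1 ruptured library 2 are high for all 5 genes, with Mmp3 at 23.7 to 29.3 CPM, and the 3 day 7 ruptured libraries hold 29.6 to 36.8 CPM of Mmp3.

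The remaining pair are membrane-type MMPs. Mmp16 (chr4:17852893-18119145) held 7.28 to 12.7 CPM (median 10.5) in naïve, 8.73, 14.2 and 16.02 CPM in day 7 contralateral and 16.5, 18.8 and 18.9 CPM in day 7 ruptured libraries. It was 1.80-fold higher than naïve (log2 fold change 0.85 ± 0.18, FDR = 0.00284) and not called over contralateral libraries (0.47 ± 0.24, FDR = 0.202), although the groups did not overlap. A transcript annotated for nonsense-mediated decay took 15.7% of its counts. Mmp24 (chr2:155775342-155818366) rested on 1 to 21 estimated counts per library, at 0.358 to 0.700 CPM in naïve and 0.409, 0.127 and 0.231 CPM in day 7 ruptured libraries. It was called lower than naïve (-1.11 ± 0.37, FDR = 0.0329), with overlapping groups, and the call was lost in 4 of 9 fits without 1 library (naïve library 3 or 4, ruptured library 2 or 3; FDR 0.0560 to 0.134), so that at this depth the call is uncertain. Its exons share 637 of 4683 bases with BC029722 on the opposite strand.

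At day 1 none of the 10 genes was called in ruptured knees, over naïve or over contralateral libraries. Nor was any other gene, the background being 0% of 21129 in both comparisons. In the first of these 959 genes had an unadjusted p under 0.05 and DESeq2 called 15, and in the second 1383 genes had such a p and DESeq2 called 0. Both counts of unadjusted p-values turned on single libraries, at 511 and 530 without day 1 ruptured library 3 and 1595 and 2609 without library 2. The largest log2 fold changes over naïve libraries were 0.87 ± 0.83 for Mmp3 and 0.59 ± 0.47 for Mmp19. Over contralateral libraries Mmp2 was at 0.67 ± 0.18 (FDR = 0.755), with ruptured libraries at 142.6, 103.7 and 178.7 CPM above all contralateral ones at 82.8, 86.9 and 96.7 CPM. These day 1 contralateral libraries also lay below all naïve ones (101.4 to 142.2 CPM), at -0.48 ± 0.16 (FDR = 0.9998, not called). Day 1 ruptured over naïve libraries gave 0.19 ± 0.16 for Mmp2 (FDR = 0.987), with overlapping groups.

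Contralateral knees did not differ from naïve ones by these limits. No gene was called at day 1 (0% of 21129, 554 genes with an unadjusted p under 0.05, 2 called by DESeq2) or at day 7 (0% of 21262, 3220 genes with such a p, 31 called by DESeq2), and DESeq2 called none of the 10 in either. Without contralateral library 1 of day 7, 1201 genes had such a p in the second comparison, against 4354 without library 2 and 4487 without library 3. At day 7 the log2 fold changes of the MMP genes ran from -1.22 for Mmp3 to 0.75 for Mmp13.

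From day 1 to day 7 in ruptured knees, 5 of the 10 rose and none fell: Mmp2 (log2 fold change 3.10 ± 0.20, FDR = 1.12e-07), Mmp14 (2.56 ± 0.19, FDR = 4.27e-07), Mmp23 (2.51 ± 0.22, FDR = 2.29e-06), Mmp11 (1.71 ± 0.15, FDR = 2.72e-06) and Mmp13, given above. Of all genes 9.04% were called higher and 6.38% lower (1910 and 1347). With upper-quartile scaling this split was 1280 and 2564, and Mmp13 was not called (0.59, FDR = 0.102). The difference between the injury effects of day 7 and day 1, each against its own contralateral group, was tested as an interaction. It was called for Mmp2 (2.47 ± 0.26, FDR = 4.10e-05), Mmp14 (2.02 ± 0.25, FDR = 0.000121), Mmp23 (1.85 ± 0.31, FDR = 0.00171) and Mmp11 (1.46 ± 0.22, FDR = 0.000871), where 3.77% of 21262 genes were called in either direction (750 higher and 52 lower). The Mmp11 call was lost with an offset for transcript length (1.03, FDR = 0.0670). The fit without contralateral library 1 of day 7 gave 892 higher and 70 lower, with the same 4 MMP genes called higher and Mmp9 called lower (-0.81 ± 0.22, FDR = 0.0467). For Mmp3 it was 2.53 ± 1.36 (FDR = 0.380) and for Mmp19 1.75 ± 0.74 (FDR = 0.235), with ranges of 0.461 to 3.40 and 0.868 to 2.25 when 1 library was left out.

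Of the other 13 MMP genes, 1 was called in ruptured knees of day 7 over naïve and 1 over contralateral libraries. Of all genes, 10.4% were called higher and 6.11% lower over naïve libraries, and 9.33% and 3.23% over contralateral ones. The 1 higher call over naïve libraries among the 8 tested is near the share of all genes. Mmp1a, Mmp1b, Mmp7, Mmp10 and Mmp20 had at most 4 estimated counts in any library and were not tested, where a count of 0 allows up to 3 counts, or 0.0701 to 0.234 CPM (counting error only). Of the 8 tested, Mmp15, a membrane-type MMP, was called higher over naïve at day 7 (0.71 ± 0.26, FDR = 0.0497), with no ruptured library under 10.6 CPM and no naïve library over 9.98 CPM. Over contralateral libraries Mmp25 alone was called, and was lower (-0.66 ± 0.13, FDR = 0.00125), at 41.4 to 57.2 against 70.2 to 81.5 CPM, and without contralateral library 1 Mmp8 was called lower as well. Mmp25 encodes an MMP of leukocytes. Mmp8, the neutrophil collagenase, was the most abundant of the 13 at 177.1 to 426.2 CPM and was not called (log2 fold change over naïve -0.47 ± 0.13, FDR = 0.0160, under the fold limit). The median of the 8 over naïve libraries was -0.18.

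Among the inhibitors, 2 of 5 rose at day 7 over naïve and over contralateral libraries, also without contralateral library 1, and none fell. For this and the following lists, the shares of all genes called higher were 10.4% over naïve and 9.33% over contralateral libraries, and those called lower 6.11% and 3.23%. Timp2, which binds both Mmp14 and the Mmp2 proenzyme, rose from 169.0 to 302.4 CPM in naïve to 815.6, 879.8 and 1272 CPM in ruptured libraries of day 7 (log2 fold change 2.09 ± 0.19, FDR = 1.20e-06). Reck, a membrane-anchored inhibitor, rose by 0.70 ± 0.12 (FDR = 0.000527). Timp1 was not called (1.52 ± 0.96, FDR = 0.250) and followed the libraries of Mmp3 and Mmp19, with up to 94.1, 93.8 and 87.7 CPM in the naïve, day 1 contralateral and day 1 ruptured groups. Timp3 was at -0.09 ± 0.15 and Timp4 at -1.27 ± 0.51 (FDR = 0.0751).

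Genes that act on MMPs changed in part. Of 11 proenzyme activators 10 were tested and 3 were called higher over naïve, none lower: Plat, the tissue plasminogen activator (1.70 ± 0.23), Ctsb, a lysosomal protease (0.64 ± 0.14), and Pcsk5, a proprotein convertase (1.28 ± 0.40). The convertase gene Furin was at 0.50 ± 0.13 (FDR = 0.0109), under the fold limit. Of 5 inducer and clearance receptors 3 were called higher, namely Mrc2 (1.73 ± 0.13) and Lrp1 (1.00 ± 0.21), both endocytic receptors, and Ddr2 (0.69 ± 0.10), a collagen receptor. The same 3 activators and 3 receptors were called over contralateral libraries. Of these activators Plat alone was called without contralateral library 1, as were the same 3 receptors.

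Of 15 genes for transcription factors that act on MMP promoters, 4 were called higher over naïve and none lower, all of them AP-1 subunits: Jund (1.01 ± 0.11), Fosl2 (0.94 ± 0.13), Jun (0.87 ± 0.14) and Fosb (1.60 ± 0.44). The list also holds the AP-1 subunit genes Fos, Fosl1 and Junb, which were not called over naïve libraries. Fosl2, Jun and Fosb were also called over contralateral libraries, and Jund as well without contralateral library 1. Runx2 was at 0.00 ± 0.10. Of 9 inducing cytokines 8 were tested and none was called over naïve (median log2 fold change -0.02), with Il1b at 0.16 ± 0.27 and Il6 at 0.02 ± 1.01, and Il17a was at 0 counts in all 18 libraries. Il1a was called lower over contralateral libraries (-0.73 ± 0.22, FDR = 0.0287), and Osm as well without contralateral library 1.

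Most genes listed for matrix proteins that MMPs cut were higher at day 7 in ruptured knees. Of 16 listed, 14 were called higher over naïve and 12 over contralateral libraries, none lower, with medians of 1.45 and 1.19 on the log2 scale against -0.04 and -0.05 over all genes. The lowest FDR values over naïve were those of the fibrillar collagen genes Col5a1 (3.25 ± 0.15) and Col3a1 (3.65 ± 0.27), Tnc (1.47 ± 0.13), which encodes tenascin C, and the elastin gene Eln (2.47 ± 0.27). In the chondrocyte list 3 of 14 were called higher over naïve (Acan, Sox9 and Col11a1) and 1 lower (Chad), and 4 higher and 0 lower over contralateral libraries. Further marker lists gave 1 higher and 0 lower of 6 hypertrophic chondrocyte genes (Ibsp), 2 higher and 2 lower of 11 osteoblast and osteocyte genes (Col1a1 and Ibsp against Mepe and Sost), 0 of 10 macrophage genes and 3 higher of 6 endothelial genes (Pecam1, Emcn and Cdh5) over naïve libraries. Over contralateral libraries the corresponding counts were 0 of 6, 1 lower of 11, 1 lower of 10 and 3 higher of 6. With contralateral library 1 left out they were 0 of 6, 1 higher and 2 lower of 11, 0 of 10 and 3 higher of 6, with 14 of 16 substrates and 3 of 14 chondrocyte genes higher.

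For each MMP gene, the 3 tested genes with the highest Pearson r of log2(CPM + 1) over the 18 libraries were listed, as a description of points that share libraries and depth. Mmp2 was most like C1qtnf1 (0.994), Clec11a (0.994) and Mxra8 (0.993), Mmp14 like Mmp23 (0.992), C1qtnf6 (0.987) and Cd276 (0.985), and Mmp23 like Mmp14, Mmp2 and Fbn2 (0.989). Mmp11 was most like Gpx7 (0.982), Dbn1 (0.979) and Col6a2 (0.978). The likest genes of Mmp3 were Mmp19 (0.972), the interleukin-1 receptor gene Il1r1 (0.967) and Socs3 (0.961), and those of Mmp19 were Il1r1 (0.990), Snai1 (0.978) and Gjb5 (0.977). Mmp13 was nearest to Podnl1 (0.954), the osteoclast protease gene Ctsk (0.911) and Kazn (0.883). Mmp16 was nearest to Glb1 (0.944), Nrp2 (0.940) and Nhsl1 (0.927). The highest r was under 0.9 for Mmp24, with Hsd3b2 (0.872), Prkcq (0.858) and Nrg4 (0.854), and for Mmp9, with Angpt4 (0.861), A2m (0.827) and C6 (0.809). Mmp2 and Mmp9, the 2 gelatinase genes, had an r of 0.011 with each other.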

How the data were processed

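The authors trimmed the reads with Trimmomatic and quantified them with kallisto against the mouse transcriptome (GRCm38), and deposited estimated counts and TPM per transcript for each library. The submitters' processing notes also name GRCh38, but all 137436 transcripts carry mouse identifiers. The study states that 1 poorly mapped library was removed, and names no library. Whether counting used strand is not given in the sources used here.

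Transcripts were assigned to GENCODE M21 genes by identifier without version, which matched 135107 of 137436 (98.3%), and 0.667% to 3.90% of counts stayed unassigned per library. Estimated counts were summed per gene and rounded to whole numbers. Genes were filtered with filterByExpr, scaled by the trimmed mean of M values and fitted with 1 mean per group by edgeR (4.0.16) quasi-likelihood tests in R 4.3.3, with Benjamini-Hochberg adjustment. Comparisons that do not need the day 7 contralateral libraries used the 15 other libraries, and the rest used all 18. limma 3.58.1 and DESeq2 1.42.0 served as alternatives, beside other scalings, filters and leaving out each library. The study's own design, which blocked on the mouse pool, could not be repeated because the labels do not give the pools. No batch is given in the labels.

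The 10 genes, the 16 gene lists and the motifs were chosen with earlier results of these data known. Named genes were the 10, the other MMP genes that were called or most abundant, up to 4 genes per list with the lowest FDR against naïve libraries among those called, and the 3 likest genes of each MMP gene. Mmp1a, Mmp1b, Mmp7, Mmp10, Mmp20, Col2a1, Ngp, Il17a, Furin, Runx2, Fos, Fosl1, Junb, Osm, Cxcr2, Lcn2, Il1b, Il6, Il1a, Timp1, Timp3, Timp4, Pdpn, Prg4, Cx3cr1, Cd68, Adgre1, Postn, Nfatc1, Retnlg, Camp, Ltf and the genes with overlapping exons were named after their values were seen. Protein sequences were not used here. The result of the erythroid marker list is not reported here.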

Additional observations from a re-analysis of the deposited data

Results flagged for a closer look

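Naïve library 5 stood apart from the 5 other naïve libraries for Mmp3, at 27.2 CPM with a gap to the next library of 0.704 of the group's range, and for Mmp19, at 40.9 CPM with a gap of 0.846. Dixon's limit for 6 values marks about 1 in 20 groups by chance, and 10 were examined. The injury effect differed between day 7 and day 1 for Mmp2 (2.47 on the log2 scale, FDR = 4.10e-05), Mmp11 (1.46, FDR = 0.000871, not called at 1.03 with an offset for transcript length), Mmp14 (2.02, FDR = 0.000121) and Mmp23 (1.85, FDR = 0.00171), by the interaction test of edgeR.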

How the results depend on the processing

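No paired analysis was possible because the labels do not say which libraries share mice, and replicate numbers only name the libraries. Mmp2, Mmp11, Mmp14 and Mmp23 were called in the same direction under every setting tried in the comparisons of day 7 ruptured with naïve and with contralateral libraries; the interaction of Mmp11 was lost with a transcript length offset (1.03, FDR = 0.0670). The lists below give counts of genes or of MMP genes. For day 7 ruptured over naïve, the lower MMP gene (Mmp24) was 0 at FDR 0.01, without a filter, with DESeq2 and with all 18 libraries fitted, and 0 to 1 without 1 library. Genes higher were 3960 at the FDR limit alone, and genes lower 2331 there, 472 at FDR 0.01, 2739 with upper-quartile scaling and 797 to 1425 without 1 library. Over contralateral libraries, MMP genes lower were 1 (Mmp9) at the FDR limit alone and with upper-quartile scaling, and genes lower 1310 and 1357 there, 251 at FDR 0.01, 452 with limma-voom, 279 in a fit on the compared groups and 279 to 1058 without 1 library. For day 7 over day 1 ruptured, genes higher were 3427 at the FDR limit alone, and genes lower 382 at FDR 0.01, 2564 with upper-quartile scaling (1280 higher), 690 with coding transcripts and 849 to 1173 without 1 library. DESeq2 called 15 lower at day 1 ruptured over naïve, 1 higher and 1 lower at day 1 contralateral over naïve, and 18 and 13 at day 7 contralateral over naïve. For the interaction, MMP genes lower were 1 (Mmp9) with coding transcripts and with DESeq2 and 0 to 1 without 1 library, genes higher 341 at FDR 0.01 and 393 to 892 without 1 library, and genes lower (52 in the reported fit) 3 at FDR 0.01, 110 with upper-quartile scaling, 25 without a filter, 27 with a length offset, 160 with DESeq2, 21 on the compared groups and 9 to 91 without 1 library. The cause of these shifts was not tested.

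The sign of Mmp9 over naïve at day 7 turned with upper-quartile scaling (-0.157), coding transcripts (-0.099), 18 libraries (-0.001) and the compared groups (-0.004), and ran from -0.062 to 0.071 without 1 library. Without 1 library, Mmp24 over contralateral ran from -1.123 to 0.265, and the interactions of Mmp16 from -0.228 to 0.157 and of Mmp24 from -0.715 to 0.673. Depth limits Mmp24, with at most 21 estimated counts.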
